A study of Mus musculus with 3 samples.

Results

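The factors described here are RNA-binding proteins that steer splicing and the fate of messenger RNA, taken as every gene whose symbol begins with Srsf and a digit, Hnrnp, Rbfox, Celf and a digit, Elavl, Nova1, Nova2, Ptbp or Mbnl, pseudogenes left out. This gave 52 genes among the 32285 features measured, all of them protein coding in the GENCODE vM21 annotation of mouse build mm10. Of these, 13 are known for their work in neurons and are called neuronal factors (Rbfox1, Rbfox2, Rbfox3, Celf3, Celf4, Celf5, Celf6, Elavl2, Elavl3, Elavl4, Nova1, Nova2 and Ptbp2). Some of them are also made elsewhere, Rbfox2 far beyond the nervous system. The other 39 are called general factors, namely 11 Srsf genes, 20 Hnrnp genes, Celf1, Celf2, Elavl1, Ptbp1, Ptbp3, Mbnl1, Mbnl2 and Mbnl3. This division comes from textbook knowledge and uses no value of these data, but it was drawn up with earlier results of these data known.

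They were measured in retinal horizontal cells, inhibitory interneurons of the outer retina that contact the terminals of rods and cones. The study sorted fluorescent cells of Cx57icre;Ai14 mice, in which a Cre made from the connexin 57 gene switches on a red reporter, at postnatal days 6, 8 and 11 (P6, P8 and P11). Each age gave 1 droplet library with 3' chemistry, the genotype was the same at all ages, and neither a mutant nor a treated group is compared here. The labels do not say how many mice entered a library. Since an age is 1 library, ages could not be tested against each other and an effect of age cannot be told apart from one of the library. Every interval below is a 95% interval for counting error alone.

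Horizontal cells were taken as barcodes with at least 1000 detected genes, at most 10% of mitochondrial UMIs and a UMI of at least 2 of Lhx1, Onecut1 and Onecut2, transcription factors of horizontal cells. A UMI, or unique molecular identifier, stands for 1 captured transcript molecule. The rule kept 7145 of 9896 barcodes at P6, 3153 of 4635 at P8 and 4757 of 5517 at P11, with median depths of 12161, 20671 and 22106 UMIs per cell. Their summed counts were 82305608, 62520239 and 103160766 UMIs. The libraries shared between 4 and 8 cell barcodes in any pair. Summed levels of 10 horizontal cell markers were 7673, 9405 and 14010 UMIs per 1000000 (CPM), and all 10 were detected at every age. Lhx1, Onecut1 and Onecut2 are among these 10. The rule itself requires UMIs of these genes, so their levels are no independent sign of cell identity. Of 13 marker lists of other cell classes, all but the amacrine and ganglion cell lists summed to 11.4 CPM or less at every age. The amacrine list summed to 90.6, 49.7 and 66.8 CPM, nearly all of it Tcf4, and the ganglion cell list to 48.2, 23.9 and 16.4 CPM, most of it Slc17a6 (46.2, 22.6 and 12.6 CPM). Their part in the differences between ages was not tested.

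As background, an exon is kept or skipped according to which proteins sit on and around it. Rbfox proteins bind the element GCAUG, Nova proteins bind clustered CA-containing elements, and Ptbp proteins bind pyrimidine tracts and mostly repress exons. Neurons are known to replace Ptbp1 with Ptbp2 as they form, and to switch on Rbfox, Nova, neuronal Elavl and neuronal Celf genes. SR proteins, encoded by Srsf genes, mostly promote exon use and many Hnrnp proteins oppose it, in almost every cell type. Mbnl proteins are known for driving the change of exons between fetal and adult tissue, in opposition to Celf1.

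The RefSeq promoter windows of Rbfox1 and Rbfox3, the 2 neuronal factors furthest below their P6 level at P11, are shown because they hold fewer CG dinucleotides than that of Srsf5, the general factor highest above its P6 level at P11. Each window holds 250 bases before and 50 bases after a RefSeq transcript start in GRCm38.p6, is printed 5′ to 3′ on the gene's strand, and has CG dinucleotides in capitals. The first Rbfox1 window is chr16:5884543-5884842 and the second chr16:7069585-7069884, both on the plus strand. The Rbfox3 window is chr11:118760992-118761291 on the minus strand, and the Srsf5 window is chr12:80945249-80945548 on the plus strand.
Rbfox1 start 1: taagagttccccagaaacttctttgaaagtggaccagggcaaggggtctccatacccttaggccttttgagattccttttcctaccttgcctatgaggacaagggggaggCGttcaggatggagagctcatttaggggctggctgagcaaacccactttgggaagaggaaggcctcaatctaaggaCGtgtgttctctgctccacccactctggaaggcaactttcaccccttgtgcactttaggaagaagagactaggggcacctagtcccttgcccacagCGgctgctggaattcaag
Rbfox1 start 2: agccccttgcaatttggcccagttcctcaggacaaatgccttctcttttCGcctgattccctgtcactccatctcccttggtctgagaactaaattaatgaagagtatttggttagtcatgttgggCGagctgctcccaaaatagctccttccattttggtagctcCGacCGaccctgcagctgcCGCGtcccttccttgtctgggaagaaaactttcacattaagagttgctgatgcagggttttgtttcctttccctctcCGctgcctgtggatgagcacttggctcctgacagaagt
Rbfox3: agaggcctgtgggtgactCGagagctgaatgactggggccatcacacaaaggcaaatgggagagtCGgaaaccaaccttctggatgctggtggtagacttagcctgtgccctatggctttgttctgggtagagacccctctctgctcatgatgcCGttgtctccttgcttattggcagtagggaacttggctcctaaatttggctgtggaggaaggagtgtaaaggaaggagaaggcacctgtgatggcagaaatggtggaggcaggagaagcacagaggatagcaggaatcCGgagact
Srsf5: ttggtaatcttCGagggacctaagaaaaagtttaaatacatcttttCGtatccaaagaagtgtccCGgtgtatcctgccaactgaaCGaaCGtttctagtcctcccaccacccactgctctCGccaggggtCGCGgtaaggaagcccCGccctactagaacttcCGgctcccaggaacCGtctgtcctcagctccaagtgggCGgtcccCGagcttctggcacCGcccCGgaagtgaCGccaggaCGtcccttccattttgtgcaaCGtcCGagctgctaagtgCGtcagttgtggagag

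These windows hold 3 and 7 CG dinucleotides for Rbfox1, 4 for Rbfox3 and 20 for Srsf5. Across the 47 members with a window in the table, the mean number of CG per window was 15.2 in the median neuronal factor (11 genes, range 4 to 36) and 28 in the median general factor (36 genes, range 10 to 52). The median was 22.5 over 5706 measured genes and 7 over all 27025 genes of the table, the number in the second Rbfox1 window. Ptbp2, with 36 CG in its window, and Elavl3, with 29, were the neuronal factors with the most. Of the other members lower at P11 by the count below, Nova1 (14), Celf5 (15.2), Hnrnpa1 (16) and Nova2 (17) had fewer than Srsf5. Srsf12 (26) and Hnrnpab (28) had more, as did Mbnl1 (21.5), which was higher at P11. A link between CG number and the differences between ages was not tested. The letters TAATTA, the core bound by many homeodomain proteins, and ATCAAT, the core bound by Onecut proteins, were searched on both strands. Each was present in 1 of 11 neuronal and 2 of 36 general factors, in 2.91% and 4.52% of the 5706 measured genes, and in 6.12% and 8.63% of all 27025 genes. A match describes the letters only.

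Several neuronal factors, Rbfox1 by far the most, were lower at P11 than at P6, while most general factors stayed within 1.5-fold. Genes were compared if the higher of the paired ages reached 20 CPM, and counted if the ages lay at least 1.5-fold apart. Of 10 neuronal factors measured for P11 over P6, 0 were counted as higher and 5 as lower (Rbfox1, Rbfox3, Celf5, Nova1 and Nova2), and all 10 had a log2 ratio below 0, with a median of -0.60. Under TMM scaling, described below, that of Elavl3 turned positive. Over all 7161 genes measured, 7.35% were counted as higher and 12.3% as lower, 19.7% in either direction, and the median log2 ratio was -0.08. Of 37 general factors measured, 2 were higher (Mbnl1 and Srsf5) and 3 lower (Hnrnpa1, Hnrnpab and Srsf12), with a median of -0.16, a share counted that lay below the background. A log2 ratio below 0 was found in 24 of these 37, and the share of all genes below 0 is not given. Celf6, Elavl2, Elavl4, Ptbp1 and Mbnl3 did not reach the 20 CPM minimum. Scaling by TMM or by median of ratios adds 0.20 to every P11 over P6 log2 ratio. Under both, the general median turned positive, to 0.038 and 0.037, and 2 general factors were higher and 1 lower. Under TMM 3 neuronal factors stayed counted as lower, and under median of ratios 4. The same amount is added to every gene, so the general median stayed below that over the same 7161 genes. Shares over all genes at these scalings are not given.

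**Figure D1:**
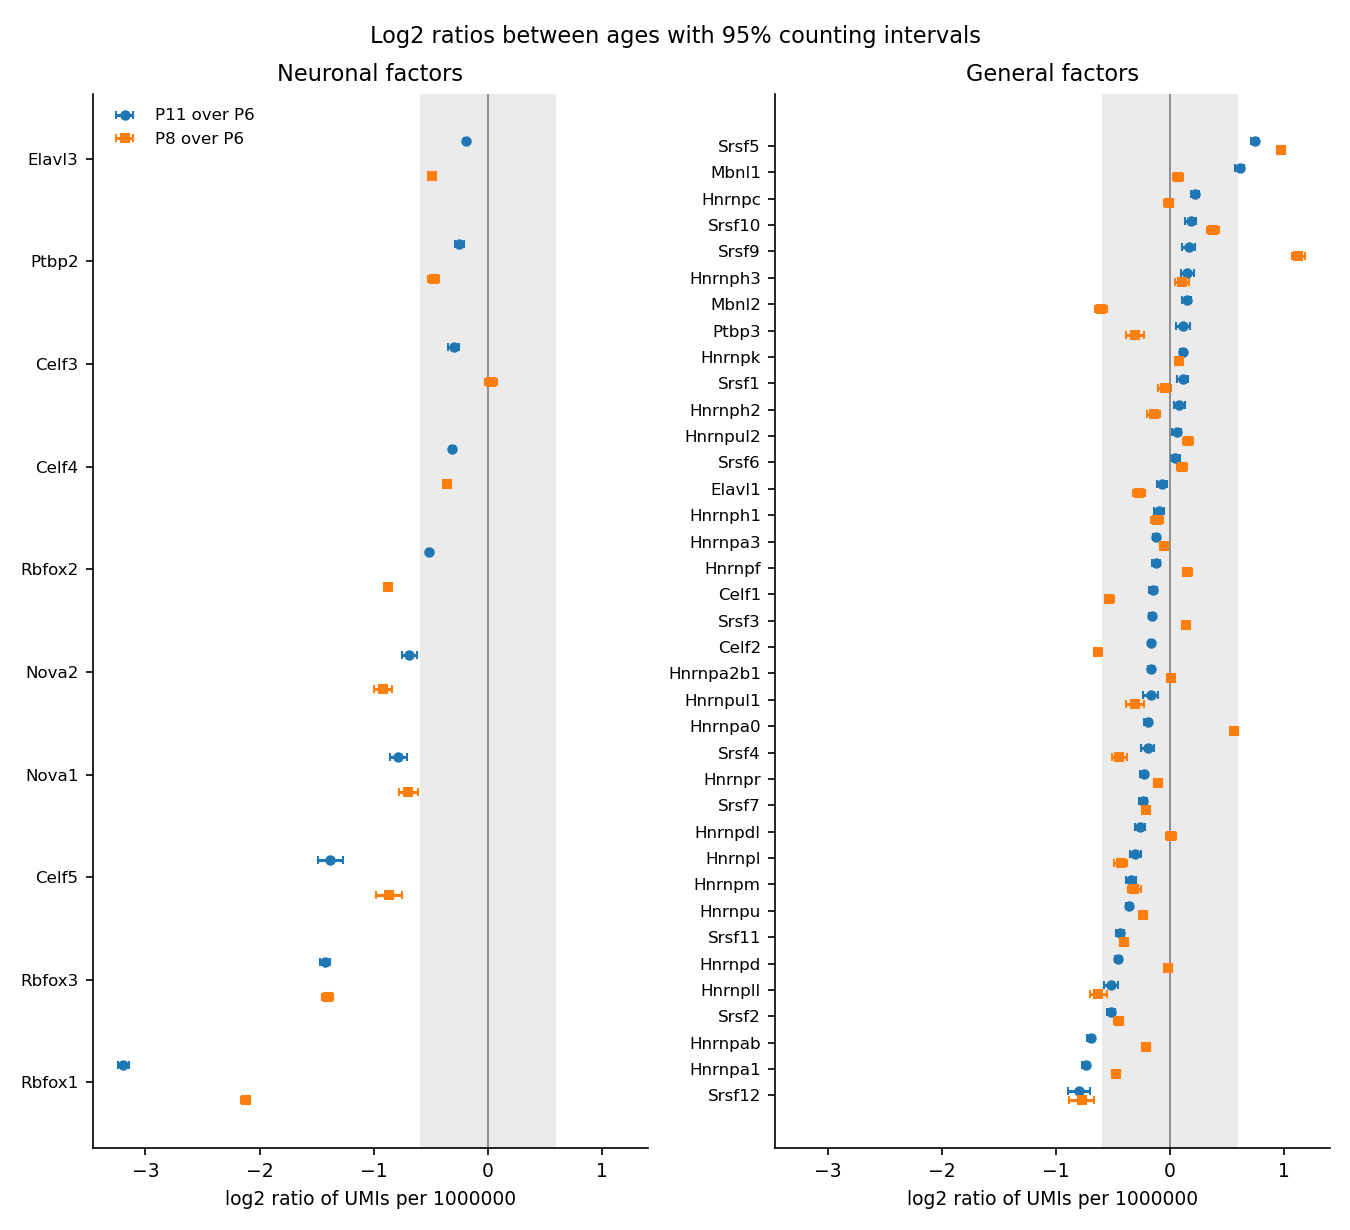
Log2 ratios of the measured members, with P11 over P6 as circles and P8 over P6 as squares, neuronal factors on the left and general factors on the right. Bars are 95% counting intervals from 1 library per age, and the grey band marks less than 1.5-fold. All neuronal circles lie left of 0 at this scaling, Elavl3 turning positive under TMM, and Rbfox1 lies farthest out, at -3.19.

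Rbfox1, whose protein is among the main splicing regulators of mature neurons, spans 1526 kb at chr16:5885355-7411526. Its level was 401.5 CPM at P6 (33047 UMIs), 92.3 CPM at P8 (5772 UMIs) and 43.9 CPM at P11 (4532 UMIs). It was lowest at the latest age and had no partial return at P11. P11 lay 9.14-fold below P6 (interval 8.86 to 9.43), P8 lay 4.35-fold below P6 (4.23 to 4.47) and P11 lay 2.10-fold below P8 (2.02 to 2.19). Over 15 settings of scaling, cell filter and minimum level the P11 over P6 log2 ratio lay between -3.29, in cells with fewer than 2 markers of other classes, and -2.99, under TMM scaling.

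Rbfox3, the gene of the NeuN antigen used to stain neurons, stood at 163.6 CPM at P6, 61.8 CPM at P8 and 60.9 CPM at P11. Its difference lay wholly between P6 and P8, and the ratio of P11 over P8 was 0.985 (0.946 to 1.03). P11 lay 2.69-fold below P6 (2.61 to 2.77). Rbfox2, which is made far beyond the nervous system as well, had more UMIs than any other of the 52 genes at each age, at 1201 CPM at P6, 654 CPM at P8 and 839 CPM at P11. P8 lay 1.84-fold below P6 (1.81 to 1.86) and P11 1.43-fold below P6 (1.42 to 1.44), short of the 1.5-fold limit. Counts of 3' ends are not divided by transcript length, since each molecule is counted once, but genes can differ in capture. A feature on the opposite strand of Rbfox2, 1700109K24Rik, had 29.7, 7.29 and 5.33 CPM at P6, P8 and P11.

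The makeup of the Rbfox family therefore differed between libraries. Of the UMIs of the 3 genes, Rbfox2 took 68.0% at P6, 80.9% at P8 and 88.9% at P11. Rbfox1 took 22.7%, 11.4% and 4.65%, and Rbfox3 9.26%, 7.65% and 6.45%. Summed over the family, the level was 1766 CPM at P6, 808 CPM at P8 and 944 CPM at P11. Shares within a library do not depend on the scaling between libraries.

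**Figure D2:**
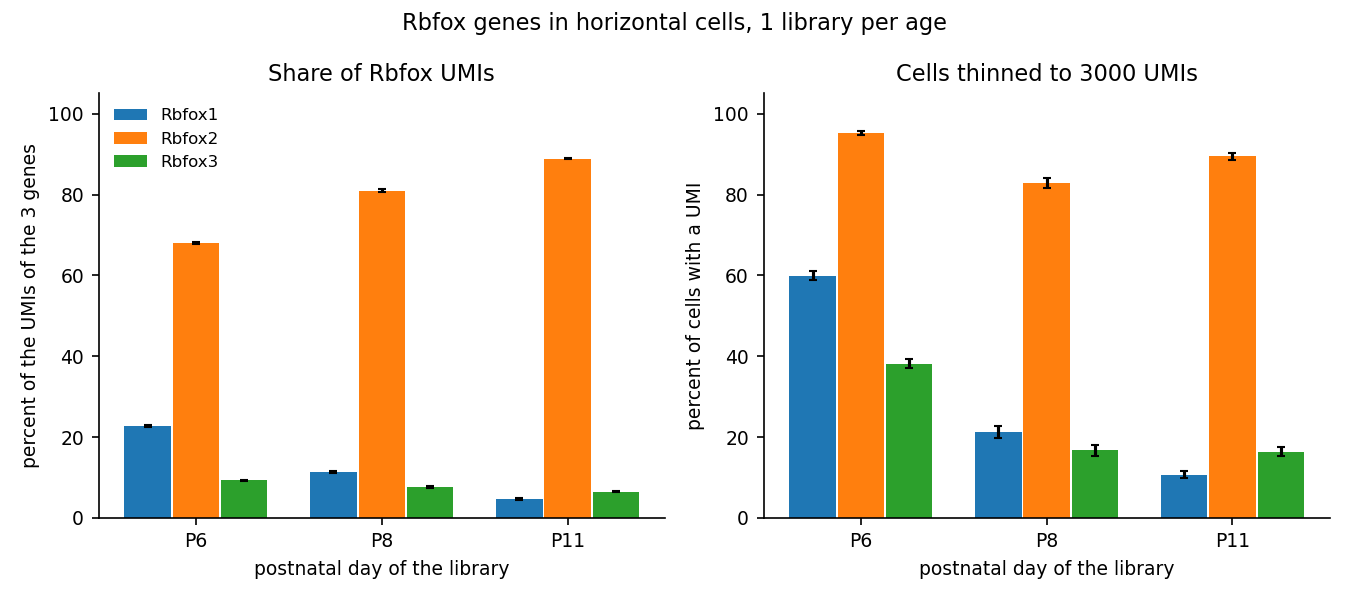
Left, the percent of the UMIs of the 3 Rbfox genes taken by each gene, and right, the percent of horizontal cells with a UMI after thinning each cell to 3000 UMIs, for 1 library per age with 95% binomial intervals as bars. Rbfox1 takes 22.7%, 11.4% and 4.65% of Rbfox UMIs at P6, P8 and P11, while Rbfox2 takes 88.9% at P11.

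Celf4, a Celf protein of neurons that binds GU-rich elements, had 586 CPM at P6, 457 CPM at P8 and 473 CPM at P11, a P11 over P6 log2 ratio of -0.31. Celf3, of the same kind, had 88.7, 90.4 and 72.1 CPM and a log2 ratio of -0.30. Celf5 was the lowest of the measured neuronal Celf genes, at 25.6 CPM at P6, 14.1 CPM at P8 and 9.84 CPM at P11. P11 lay 2.60-fold below P6 (2.41 to 2.81), and P11 was the lowest age, as for Rbfox1. Celf2, the broadly made relative, had 689, 446 and 614 CPM, and took 44.0%, 39.5% and 46.3% of Celf UMIs at P6, P8 and P11, against 37.4%, 40.5% and 35.6% for Celf4. Celf1 had 176, 122 and 158 CPM. Celf6 was barely detected, with 16, 4 and 10 UMIs in all.

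The Elavl family, which binds AU-rich elements and stabilises messages, was carried by 1 neuronal gene. Elavl3, which encodes HuC, had 598 CPM at P6, 426 CPM at P8 and 525 CPM at P11, and took between 86.0% and 87.6% of Elavl UMIs at every age. Elavl2 and Elavl4, which encode HuB and HuD, stayed below 2 CPM at every age. Elavl1, the HuR gene of most cell types, had 81.5, 67.5 and 77.7 CPM. The P11 over P6 log2 ratio was -0.19 for Elavl3 and -0.07 for Elavl1, and both signs turn positive under TMM scaling.

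Nova1 and Nova2 were both low and both lower after P6. Nova1 had 46.4 CPM at P6, 28.6 CPM at P8 and 27.0 CPM at P11, with P11 1.72-fold below P6 (1.64 to 1.81). Nova2 had 57.7, 30.5 and 35.8 CPM with P11 1.61-fold below P6 (1.54 to 1.68). Their ratio to each other, Nova1 over Nova2, was 0.804 at P6, 0.939 at P8 and 0.752 at P11. Under TMM scaling neither gene reached the 1.5-fold limit, at -0.58 for Nova1 and -0.49 for Nova2.

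Ptbp2 exceeded Ptbp1 at every age. Ptbp2 had 122 CPM at P6, 88.1 CPM at P8 and 103 CPM at P11, and Ptbp1 had 6.38, 4.62 and 6.81 CPM. The ratio of Ptbp2 to Ptbp1 was 19.2 in the P6 library (17.5 to 20.9), 19.1 in the P8 library (16.9 to 21.5) and 15.1 in the P11 library (14.0 to 16.3). Ptbp3, a broadly made paralog, had 45.2, 36.6 and 49.0 CPM.

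**Figure D3:**
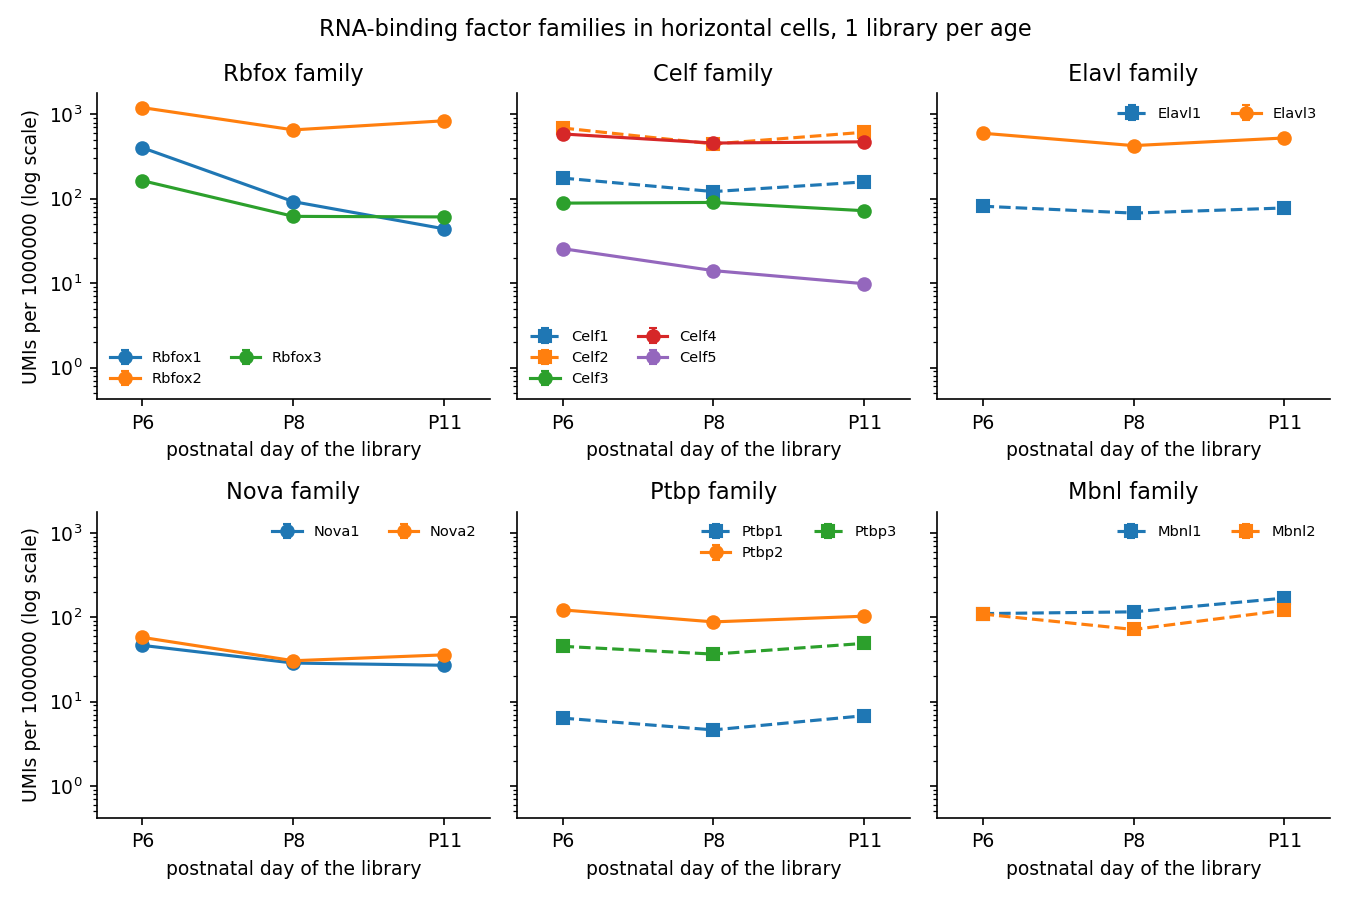
Levels in CPM, on a log scale, of the families with a neuronal member and of Mbnl1 and Mbnl2 at P6, P8 and P11, with neuronal factors as circles on solid lines and general factors as squares on dashed lines. Points are 1 library each and bars 95% counting intervals. Rbfox1 reaches 43.9 CPM at P11, below Rbfox3 at 60.9 CPM, and Celf2 and Mbnl2 are lowest at P8.

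Mbnl1 and Srsf5 were the general factors higher at P11. Mbnl1, a muscleblind protein, had 110 CPM at P6, 116 CPM at P8 and 169 CPM at P11, which is 1.53-fold higher at P11 than at P6 (1.49 to 1.57). Its paralog Mbnl2 had 109, 71.6 and 121 CPM, 1.69-fold higher at P11 than at P8 (1.63 to 1.75) and close to its P6 level. Mbnl1 took 50.2% of Mbnl UMIs at P6, 61.8% at P8 and 58.2% at P11. Mbnl3 had 0.146, 0.048 and 0.0582 CPM. Srsf5, an SR protein gene, had 167 CPM at P6, 328 CPM at P8 and 280 CPM at P11, 1.67-fold higher at P11 than at P6 (1.64 to 1.71).

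Of 11 Srsf genes, all measured, 1 was counted as higher at P11 than at P6 (Srsf5) and 1 as lower (Srsf12), with a median log2 ratio of -0.16. Over all measured genes 7.35% were higher and 12.3% lower, so 1 of 11 each way lay near the background. Srsf12 had 25.3, 14.8 and 14.6 CPM at P6, P8 and P11. Srsf9 stood apart at the middle age, with 48.5 CPM at P6, 105.6 CPM at P8 and 54.4 CPM at P11. Srsf3, which controls its own splicing, had 262, 289 and 235 CPM.

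Of 20 Hnrnp genes, 0 were counted as higher and 2 as lower at P11 than at P6, with a median log2 ratio of -0.18, below the 7.35% higher and 12.3% lower of all measured genes. Hnrnpa1, a repressor of exons, had 242 CPM at P6, 174 CPM at P8 and 145 CPM at P11, with P11 1.67-fold below P6 (1.63 to 1.71). Hnrnpab had 220, 190 and 136 CPM with P11 1.62-fold below P6 (1.58 to 1.66). Under TMM scaling both were short of the limit, at -0.54 and -0.50. Hnrnpk was the highest at P11, with 354, 375 and 383 CPM, and Hnrnpa2b1, which also takes part in RNA transport, had 260, 261 and 232 CPM. Hnrnpa0 had 201, 296 and 175 CPM. Hnrnpm shares its strand and part of its span with March2, which had 112, 103 and 108 CPM, so reads of these genes may be split either way.

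Summed within each library, neuronal factors gave 3293 CPM at P6, 1945 CPM at P8 and 2192 CPM at P11, and general factors 5845, 5514 and 5349 CPM. Neuronal factors thus took 36.0%, 26.1% and 29.1% of the UMIs of all 52 genes. The ratio of neuronal to general sums was lower by 0.46 on the log2 scale at P11 than at P6 (-0.47 to -0.45), and by 0.68 at P8 than at P6 (-0.69 to -0.66). Without the 3 Rbfox genes these changes were -0.16 and -0.34. The Rbfox genes therefore made up most of the change in that ratio for P11 over P6.

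For P8 over P6, 0 of 10 measured neuronal factors were counted as higher and 6 as lower, namely the 5 named above and Rbfox2, with a median log2 ratio of -0.78. Set against gene span, described below, 4 were lower and the median was -0.28. Across 7066 genes 7.97% were higher, 21.7% lower and 29.6% apart in either direction, with a median of -0.14. Of 37 general factors 2 were higher (Srsf5 and Srsf9) and 4 lower (Celf2, Hnrnpll, Mbnl2 and Srsf12), a share below the background. TMM and median of ratios, which add 0.28 and 0.32 to each ratio, gave 4 higher and 0 lower. Shares over all genes at these scalings are not given. Srsf9 was 2.18-fold higher at P8 than at P6 (2.09 to 2.26), and Hnrnpll, known in lymphocytes for splicing of the Ptprc message, had 53.0, 34.3 and 37.0 CPM at P6, P8 and P11.

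For P11 over P8, Rbfox1 was the 1 neuronal factor of 9 measured that was counted, as lower. Of 36 general factors, Mbnl2 was higher and Hnrnpa0 and Srsf9 lower. Over 6769 genes 10.4% were higher, 4.55% lower and 14.9% apart in either direction, so the shares counted in either direction, 1 of 9 and 3 of 36, lay below the background.

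Gene span, the distance from a gene's first to its last annotated base, moved with these ratios across all genes. For P8 over P6 the median log2 ratio was 0.27 in the shortest quintile of genes and -0.73 in the longest, which has a median span of 164 kb. In the longest quintile 61.1% of genes were counted as lower. For P11 over P6 the medians were 0.03 and -0.29, and 27.0% of the longest genes were lower. Neuronal factors are long, with a median of 95.1 kb among those measured, against 14.1 kb for general factors. Rbfox3 spans 422 kb, Celf4 277 kb, Rbfox2 228 kb and Nova1 124 kb, while the general factor Celf2 spans 970 kb. The part of gene span in these differences, and of intron reads, whose counting the sources used here do not give, was not tested.

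Set against the median of its own span quintile, Rbfox1 was at -2.90 for P11 over P6 and -1.39 for P8 over P6, and Rbfox3 at -1.13 and -0.67. The longest quintile runs from 91.6 kb to 2961 kb around its median of 164 kb, so it is no close match for a gene of 1526 kb. Celf5, with a span of 23.5 kb, was at -1.33 and -0.76, and Nova2, with 39.4 kb, at -0.64 and -0.81. Nova1, at 124 kb in the longest quintile, was at -0.49 and 0.04, so for P8 over P6 it stood near that quintile's median. Rbfox2 came to -0.22 and -0.14, near its quintile at both ages. Mbnl1, at 157 kb, stood 0.90 above its quintile for P11 over P6, and Srsf5 0.71 above. Celf2, the second longest member, stood 0.13 above for P11 over P6. By this measure 0 neuronal factors were higher and 4 lower at P11 than at P6 (Rbfox1, Rbfox3, Celf5 and Nova2), with a median of -0.39. Over 7159 genes with a span, 9.07% were higher and 9.16% lower by the same measure for P11 over P6. General factors had 2 higher and 3 lower, with a median of -0.12. For P8 over P6, 0 neuronal factors were higher and the same 4 lower, with a median of -0.28. General factors then had 3 higher and 3 lower, with a median of -0.16. Shares over all genes by this measure are not given for P8 over P6.

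**Figure D4:**
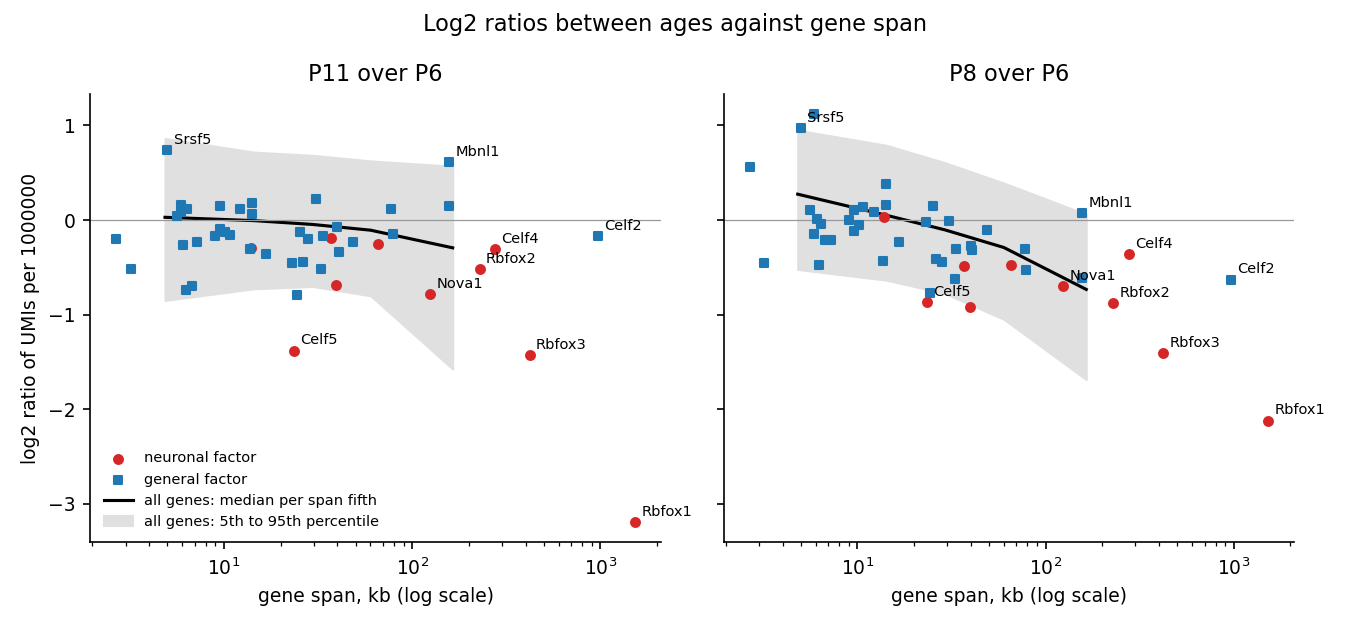
Log2 ratios of measured members against gene span on a log scale, for P11 over P6 on the left and P8 over P6 on the right, with neuronal factors as circles and general factors as squares. The black line joins the medians of all measured genes per span quintile and the grey band runs from the 5th to the 95th percentile. Line and band end at 164 kb, the median span of the longest quintile. Rbfox1, at 1526 kb, and Rbfox3, at 422 kb, lie to the right of that end and below that quintile's median in both panels. Rbfox3 lies above that quintile's 5th percentile in both, and Mbnl1 lies above the line.

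Malat1, a nuclear RNA whose share of UMIs is often read as a sign of how much of a droplet's RNA is nuclear, had 20337 CPM at P6, 15319 CPM at P8 and 21409 CPM at P11. Within each library, cells were divided into tertiles of Malat1 share. Rbfox1 had 490 CPM in the high tertile against 293 CPM in the low tertile at P6, 131 against 55.1 CPM at P8, and 49.2 against 37.2 CPM at P11. Rbfox2 had 1371 against 975 CPM at P6, 815 against 502 CPM at P8, and 993 against 672 CPM at P11. Elavl3 hardly differed, with 582 against 596 CPM at P6 and 502 against 541 CPM at P11. Over measured neuronal factors the median log2 ratio of high over low tertile was 0.27, 0.36 and 0.25 at P6, P8 and P11, beside 0.12, 0.37 and 0.21 over general factors. The part of Malat1 share in the differences between ages was not tested further.

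**Figure D5:**
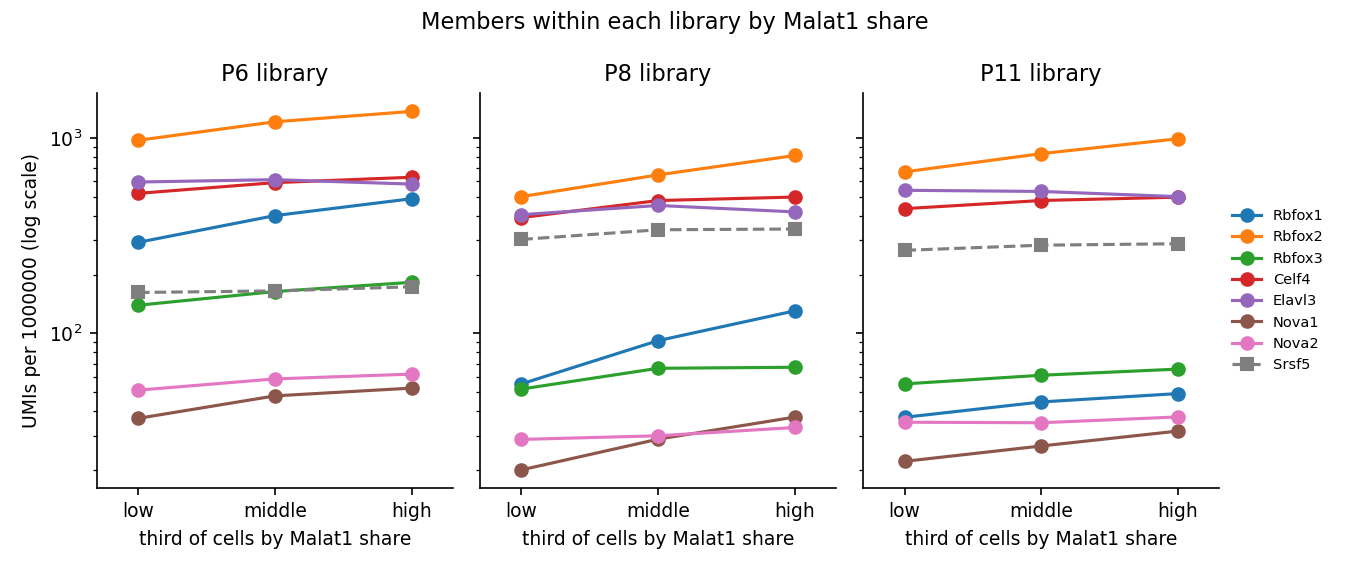
Levels in CPM, on a log scale, of 7 neuronal factors (circles) and Srsf5 (squares) in horizontal cells of low, middle and high Malat1 share, for each library. Each point sums the cells of 1 tertile of 1 library and carries no replicate error. Rbfox1 runs upward from 55.1 to 131 CPM across the P8 tertiles, whereas Elavl3 is nearly level in all 3 libraries.

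To compare shares of cells at equal depth, each cell was thinned to 3000 UMIs, which left out 377 of 7145 cells at P6, 97 of 3153 at P8 and 90 of 4757 at P11. Rbfox1 had a UMI in 59.9% of cells at P6 (interval 58.7 to 61.1), in 21.3% of P8 cells (19.8 to 22.8) and in 10.7% of P11 cells (9.80 to 11.6). Without thinning the shares were 86.5%, 63.0% and 41.9%. Rbfox2 was seen in 95.2%, 82.9% and 89.5% of thinned cells, and Rbfox3 in 38.2%, 16.7% and 16.3%. Celf4 was seen in 80.6%, 72.1% and 75.5%, and Elavl3 in 82.6%, 69.0% and 78.2%. Nova1 was seen in 12.3%, 7.82% and 7.16%, and Nova2 in 16.0%, 8.67% and 10.6%. Srsf5 went the other way, at 39.7%, 62.0% and 55.9%, as did Mbnl1, at 27.7%, 28.9% and 37.8%.

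Free RNA in droplets can give a UMI to a cell that does not make the gene. Barcodes with UMIs of at least 3 rod markers and none of Lhx1, Onecut1 and Onecut2 numbered 24, 29 and 35 at P6, P8 and P11 after thinning to 1500 UMIs, a depth chosen after seeing the data. Their median depths before thinning were 1933, 2404 and 2055 UMIs. Rbfox1 was seen in 40.9%, 12.6% and 6.03% of horizontal cells at that depth, against 0 of 24, 0 of 29 and 1 of 35 rod-marker barcodes. The exact upper bounds for the rod-marker barcodes were 14.2%, 11.9% and 14.9%. The horizontal cell share lay above that bound at P6, while at P8 its interval (11.5 to 13.8) overlapped the bound and at P11 it lay below it, so that background is not distinguishable there at this depth and number. Requiring no UMI of Lhx1, Onecut1 and Onecut2 selects droplets with less horizontal cell RNA, so these barcodes may give too low a background, at P6 too. Rbfox2 was seen in 80.8%, 61.5% and 69.7% of horizontal cells and in 2, 1 and 1 of the rod-marker barcodes, and Rbfox3 in 21.6%, 9.11% and 8.45% and in 0 of them at each age, which allows up to 14.2%, 11.9% and 10.0%, so that its shares at P8 and P11 are not distinguishable from background here. Elavl3 was seen in 57.7%, 46.4% and 53.0% of horizontal cells and in 3, 1 and 0 of the rod-marker barcodes. Celf2 behaved otherwise, with 62.7%, 48.2% and 59.0% of horizontal cells and 87.5%, 72.4% and 71.4% of rod-marker barcodes, and Mbnl1 likewise, with 14.8%, 16.6% and 22.4% of horizontal cells and 6 of 24, 14 of 29 and 17 of 35 rod-marker barcodes. Srsf5 was seen in 21.9%, 39.4% and 35.1% of horizontal cells and in 3 of 24, 12 of 29 and 10 of 35 rod-marker barcodes, so its order over the ages was alike in both. Ptbp2 was seen in 16.9%, 13.5% and 14.4% of horizontal cells and in 8 of 24, 11 of 29 and 3 of 35 rod-marker barcodes, and Celf3 in 12.1%, 13.4% and 10.5% of horizontal cells and 2, 4 and 3 of those barcodes. Nova1 was seen in 6.71%, 4.70% and 3.95% and Nova2 in 8.37%, 3.59% and 5.38% of horizontal cells, against 3, 0 and 0 and 1, 0 and 0 rod-marker barcodes. Celf5 was seen in 3.85%, 1.87% and 1.41% of horizontal cells, against 0, 1 and 0 rod-marker barcodes. At every age the shares of Celf2, Mbnl1, Srsf5, Ptbp2, Celf3, Celf5, Nova1 and Nova2 lay within or below the exact rod-marker interval. They are not read as above background by this comparison. Rod-marker barcodes also carry transcripts of their own cell, so for genes that rods make their shares do not measure free RNA. For such genes this comparison cannot place horizontal cells against background.

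Rbfox1 was more unevenly spread over cells than the other members. Its variance over its mean in thinned cells, which is close to 1 when cells differ by sampling alone, was 3.33 at P6, 2.66 at P8 and 1.82 at P11. Rbfox2 had 1.40, 1.33 and 1.31, and 45 other members of at least 20 CPM lay between 0.966 and 1.19. Thinned to 1500 UMIs, Rbfox1 had 2.24, 1.73 and 2.54 at P6, P8 and P11, so its order over the ages depended on the depth. Part of the spread of Rbfox1 at 3000 UMIs came from a few cells. With at least 10 Rbfox1 UMIs of 3000, a limit chosen after seeing the data, there were 22 of 6768 cells at P6, 2 of 3056 at P8 and 2 of 4667 at P11, and they held 6.08%, 5.03% and 3.28% of Rbfox1 UMIs. Without them the variance over the mean was 1.63, 1.37 and 1.54. Leaving out cells by their own Rbfox1 count lowers this value by construction, and the other members were not trimmed in the same way. The 22 cells at P6 had a median depth of 5565.5 UMIs before thinning, against 12475 in the other cells, and 35364 against 19581 CPM of Malat1. The same 22 cells had 4364 CPM of the horizontal cell markers, against 7529 CPM in the other cells. They had 470 against 87.4 CPM of the amacrine list, 242 against 6.52 CPM of the bipolar list and 318 against 46.3 CPM of the ganglion cell list. The microglia list (136 against 12.8 CPM) and the erythroid, rod, Muller glia, endothelial and astrocyte lists were also higher. The cone, cycling progenitor, pericyte and pigment epithelium lists had 0 CPM. With 22 cells of 3000 UMIs each, these values rest on few UMIs. The 2 cells at P8 had 0 CPM of Lhx1, Onecut1 and Onecut2 after thinning and 1333 CPM of the bipolar list. Leaving out the cells with at least 10 Rbfox1 UMIs changed the P11 over P6 log2 ratio of Rbfox1 in thinned cells to -3.15, beside -3.18 with them.

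Over all horizontal cells at P6, Rbfox1 ran at a median of 3.16 UMIs per 10000, with 5.68 at the 75th percentile and 11.9 at the 95th. At P8 these values were 0.499, 1.37 and 3.52, and at P11 0, 0.522 and 1.72. The 25th percentile at P6, 1.36, thus lay above the median of P8 and close to its 75th percentile. In thinned cells at P6, Rbfox1 was lower where Mgarp, a gene higher at later ages, had a UMI, at 309 CPM in 2068 cells against 463 CPM in 4700 cells without one. Cells with and without a Vax2 UMI had 351 and 424 CPM at P6, and cells with and without a Pyy UMI had 420 and 414 CPM. These are single libraries, and cells of 1 library are not replicates.

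Other RNA-binding genes, from lists that the choice of members did not use, give the surroundings. Against the 7.35% of all measured genes higher and 12.3% lower at P11 than at P6, of 7 other neuron-enriched splicing regulators measured 0 were counted as higher and 2 as lower. These genes are long, with a median span of 153 kb. Set against the span quintile, 1 was higher (Snrpn) and 1 lower (Srrm4), beside 9.07% and 9.16% of all genes. Their median log2 ratio, -0.40, was -0.11 by that measure. Srrm4, which activates neuronal microexons, had 328 CPM at P6, 129 CPM at P8 and 168 CPM at P11, and its relative Srrm3 had 258, 112 and 166 CPM. Of 29 other general splicing regulators measured, 0 were higher and 3 lower, among them Rbm4b (68.0, 41.9 and 41.1 CPM), with a median log2 ratio of -0.33. Set against the span quintile, 0 were higher and 2 lower, with a median of -0.29. Of 31 measured genes of the core spliceosome, 0 were higher and 2 lower, Snrnp70 and Snrpc of the U1 particle, with a median of -0.06. Among 5 measured SR protein kinases, Clk1, which phosphorylates SR proteins, was the 1 counted, at 47.0, 30.6 and 30.9 CPM. The counts of these lists, of 2, 3, 2 and 1 genes, stood near or below the background for the larger lists, and 2 of 7 and 1 of 5 are larger shares over few genes.

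Of 25 measured factors of mRNA fate, 1 was higher and 4 lower at P11 than at P6, near the 7.35% and 12.3% of all measured genes. Msi2, a Musashi protein that controls translation, had 1399 CPM at P6, 1060 CPM at P8 and 2237 CPM at P11, above any of the 52 members at P11. Rbm3, a cold-inducible RNA-binding protein, had 401, 419 and 212 CPM. Cpeb2, which binds the cytoplasmic polyadenylation element, had 34.6, 17.9 and 17.7 CPM.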

How the data were processed

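The authors deposited raw UMI counts per gene and barcode for 3 libraries, made, per the submitters' processing notes, with Cell Ranger 7.1.0 and build mm10. Neither the annotation release nor the intron setting was given in the sources used here. The cell rule, the members and the gene lists were chosen with earlier results of these data known. Counts were summed over the horizontal cells of a library and scaled to 1000000 UMIs (CPM). Intervals are exact Poisson for sums, conditional binomial for ratios and Clopper-Pearson for shares. The interval of the neuronal to general change was formed from the Clopper-Pearson bounds of both shares and is wider than an exact one. Named genes are all neuronal factors, the general factors at least 1.5-fold apart between any ages or among the 5 highest, the paralogs of neuronal factors, and up to 2 members each way of every other list. Some genes under this rule are not reported. Gene spans came from GENCODE vM21, and promoter windows from RefSeq on GRCm38.p6. Doublets were kept, and an alternative left out the cells with the highest Scrublet scores (scanpy 1.11.5). TMM factors came from edgeR 4.0.16. The calculation was checked on simulated counts. The libraries are droplet counts of the mRNA near the 3' end, where overlapping genes on opposite strands are told apart only if the counting used strand, which is not stated. Of the 52 members, 22 overlap another feature and 5 do so on the same strand.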

Additional observations from a re-analysis of the deposited data

How the results depend on the processing

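Of 18 alternatives, 16 were planned and 2 added after seeing the data (no Rbfox genes, and no cells with a rare marker of another class). The P11 over P6 log2 ratios of Rbfox1 and Rbfox3 stayed past 1.5-fold in each that gave a value, and so did that of Celf5, which a minimum of 50 CPM leaves out. The count of neuronal factors apart for P11 over P6, 5, became 3 under TMM factors, a minimum of 50 CPM, a fold of 2 or without the Rbfox genes. The general count, 5, became 3 under TMM and median of ratios and 0 at a fold of 2. For the counts in this section, shares over all genes at each alternative are not given. The neuronal median of -0.60 moved to -0.40 under both scalings, -0.41 at 50 CPM, -0.69 with no minimum, -0.39 against the span quintile, and -0.31 both without the Rbfox genes and with Rbfox2 counted as general and Celf2 and Mbnl2 as neuronal. The general median of -0.16 moved to 0.038 under TMM, 0.037 under median of ratios and -0.12 against the span quintile. For P8 over P6 the neuronal count, 6, became 3 under median of ratios or without the Rbfox genes and 2 at a fold of 2, and the general count, 6, became 1 at a fold of 2. For P11 over P8 the neuronal count, 1 as lower, became 3 with no minimum (2 higher and 1 lower). It became 2 under the other division (1 higher and 1 lower) and 0 without the Rbfox genes. The genes added with no minimum, Celf6 and Elavl2, had few UMIs. The general count, 3, became 0 at a fold of 2 and 1 against the span quintile. The log2 change of the neuronal to general ratio for P11 over P6, -0.46, was -0.48 as a mean over cells, -0.43 in thinned cells, -0.27 under the other division and -0.16 without the Rbfox genes. For P8 over P6, -0.68, it was -0.66 within the middle range of Malat1 share, -0.65 in thinned cells, -0.53 under the other division and -0.34 without the Rbfox genes. Set against the span quintile, 3 of the 12 P8 over P6 log2 ratios at least 1.5-fold apart changed sign, those of Nova1 (0.038), Celf2 (0.10) and Mbnl2 (0.13), and so did 8 of the 35 others, among them Celf4, from -0.36 to 0.38. The cause of these changes was not tested, beyond what the alternatives change by construction. No paired analysis was possible because each age has 1 library. A comparison of protein sequences between paralogs is not analysed here.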
